A study of Xenopus laevis with 6 samples.

Results

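Rab GTPases were examined in *Xenopus laevis* embryos at the 8-cell stage by comparing the animal with the vegetal pole. The members were all genes whose annotated symbol, without the final .L or .S, is rab followed by a number and an optional letter. These were 57 of the 11303 genes named on the array, 29 .L and 28 .S copies of 44 Rab names. The suffixes mark the homeologs, the copies of a gene on the long and the short chromosomes of this allotetraploid frog. A further probe set that lists several genes, a Rab gene among them, was not used. Total RNA was hybridized to 6 oligonucleotide arrays of 1 colour, 3 from animal blastomeres, which form the upper tier, and 3 from the part of the vegetal blastomeres nearest the vegetal pole, with the equatorial part removed. All embryos came from hormone-induced natural matings of adults whose strain and genotype the labels do not give, were dejellied in cysteine and were fixed in ethanol and acetic acid before dissection. How many embryos make up a sample, and whether the replicates are of different clutches, is not in the labels. The p-values therefore cover the spread between these samples alone.

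Rab proteins are small GTPases that give membranes their identity. A Rab bound to GTP sits on the membrane of 1 compartment by its prenylated tail and recruits effectors such as tethers, motors and adaptors, and a Rab bound to GDP is drawn off the membrane by GDP dissociation inhibitor. Guanine nucleotide exchange factors switch Rabs on, GTPase-activating proteins switch them off, and Rab escort protein presents newly made Rabs to the enzyme that prenylates them. The egg lays down the RNA for this machinery, and cleaving blastomeres use it to add new plasma membrane at each furrow, to take up and recycle receptors and to handle yolk. The roles of single Rabs given below are known mainly from yeast and mammalian cells.

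The arrays separated the poles as labelled. Of 15 tested RNAs in a list of vegetal pole markers, such as *nanos1.L*, *dazl.L* and *gdf1.S*, 15 were higher at the vegetal pole. Of 6 tested animal pole markers 5 were higher at the animal pole, and *bmp2.S* was higher at the vegetal pole. Markers of follicle cells and blood were near background with a single exception in each list. Of 5 follicle cell genes on the array, *cyp19a1.L*, *fshr.L* and *hsd3b1.L* stayed at or below the unspiked controls on every array, and the summed level of the list, nearly all of it *cyp17a1.L*, was 628 to 651 at the animal and 1880 to 2150 at the vegetal pole. Of 7 blood genes 5 were not above the controls on any array, and the summed level, mostly *slc4a1.L*, was 450 to 527 at the animal and 624 to 693 at the vegetal pole. Each sum rests mainly on a single gene, so neither measures the amount of follicle cells or blood. Whether the *cyp17a1.L* and *slc4a1.L* RNA came from such cells was not tested. The part of such cells in the results below was not tested either. The signal at the 3' end of *gapdh* over that at its 5' end, from the array's control probe sets, was 3.96 to 4.31 on animal and 6.96 to 7.77 on vegetal arrays. For *actin* the 3' end over the middle was 7.02 to 7.93 on animal and 11.7 to 14.7 on vegetal arrays. By neither ratio did the groups overlap, so these ratios differ along with the pole on every array. The part of these ratios in the pole differences below was not tested.

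Most Rab RNAs were present in the embryo. Under the deposited scaling 20 of 46 tested Rab genes passed for a difference between the poles (43.5%, against 50.9% of all genes). Of the 57 Rab genes 43 (75.4%) read above the highest unspiked control probe set on all 6 arrays, against 68.1% of all named genes, and 9 (15.8%) on none, against 19.5%. The filter on dim probe sets left 46 Rab genes to test. Of these, 14 were higher at the animal pole (30.4%, against 27.1% of all 8026 genes tested), 6 were higher at the vegetal pole (13.0%, against 23.7%), and 26 did not pass an adjusted p of 0.05 (limma moderated test, Benjamini-Hochberg over all 19523 probe sets tested). For 26 of the 46 the animal and vegetal values did not overlap, against 58.3% of all genes. Differences of at least 2-fold passed for 5 Rab genes in the animal and 1 in the vegetal direction, against 7.95% and 6.57% of all genes. The median log2 difference, animal minus vegetal, was 0.12 for the Rab genes and 0.03 for all genes, and the median size of the difference regardless of direction was 0.29 and 0.36. In such bulk samples, fewer cells holding an RNA and less of it per cell cannot be told apart. The split between the directions moved with the scaling of the arrays, which was taken as deposited. Centring each array on its median gave 9 animal and 14 vegetal Rab calls, and scaling to the spiked controls gave 22 and 3. The median over all genes moved with it, from 0.03 to -0.24 and 0.27, whereas quantile normalization gave 16 and 8 at a median of -0.02. Calls over all genes were 1193 animal and 3284 vegetal with median centring, 2785 and 826 with spiked controls and 2058 and 2182 with quantile normalization. The counts given below for compartments and classes under these scalings are to be read beside those.

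**Figure D1:**
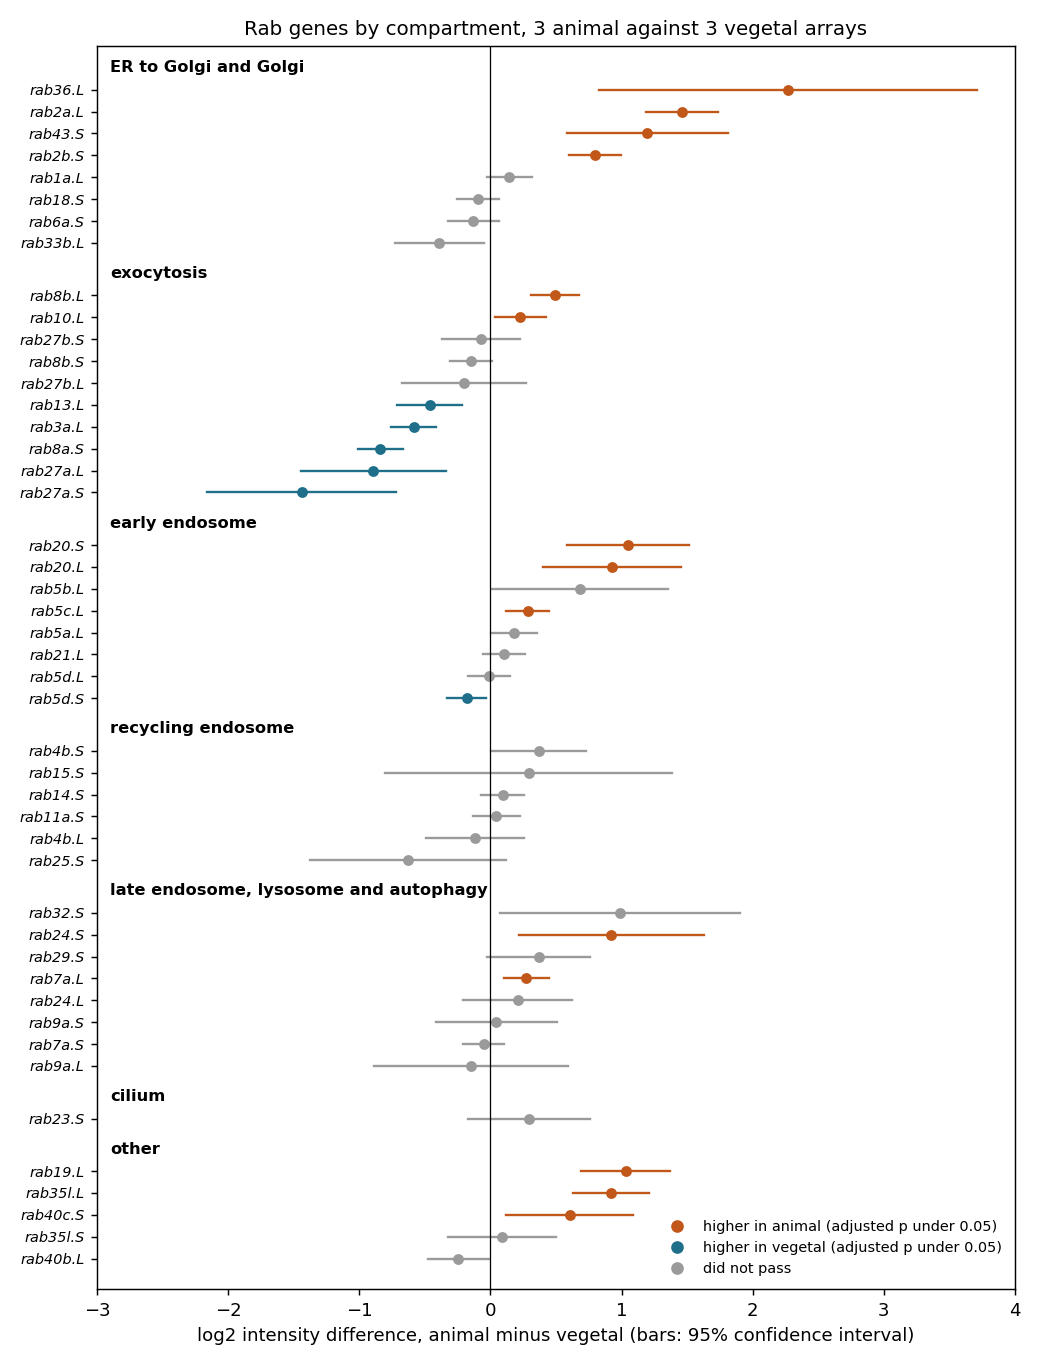
Log2 intensity difference, animal minus vegetal, of the 46 tested Rab genes, 1 probe set each, grouped by the compartment each Rab is known for (points, with 95% confidence intervals; 3 arrays per group). Rabs of the early secretory pathway that passed the threshold lie on the animal side, 5 of 10 exocytic Rabs pass on the vegetal side, and none of the 6 genes grouped as recycling passes. The recycling group leaves out *rab35l*, which was placed under other after the data were seen and whose .L copy passes on the animal side. Of all genes tested 50.9% pass, 27.1% on the animal and 23.7% on the vegetal side.

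Rabs of the early secretory pathway that passed the test were all higher at the animal pole. Of 8 tested genes of traffic from the endoplasmic reticulum (ER) to and within the Golgi, 4 were higher at the animal pole and 4 did not pass, with a median log2 difference of 0.47. The share called, 4 of 8, is close to the 50.9% of all genes called in either direction, and 27.1% of all genes were called toward the animal pole. *rab2a.L*, which acts in transport between ER and Golgi, read 257.7, 233.9 and 235.0 at the animal and 77.9, 85.8 and 101.2 at the vegetal pole. Every animal array lay above every vegetal one, a difference of 2.76-fold (95% confidence interval 2.28 to 3.33, limma adjusted p = 2.1e-07). Its close relative *rab2b.S* read 782.5, 751.2 and 808.1 at the animal and 398.6, 457.7 and 495.8 at the vegetal pole, 1.74-fold higher at the animal pole (1.52 to 1.99, limma adjusted p = 4.17e-06). Both calls held under every alternative run. *rab43.S*, a Golgi Rab, read 37.3, 46.0 and 35.2 at the animal and 19.7, 10.9 and 23.3 at the vegetal pole by its brightest probe set, 2.29-fold higher at the animal pole (1.495 to 3.52, limma adjusted p = 0.00288), but its other probe set went the opposite way, as described below. *rab36.L*, another Golgi Rab, read 12.2, 20 and 25.6 at the animal and 4.5, 12.3 and 0.5 at the vegetal pole. Its groups overlapped, 1 of the 3 vegetal arrays was above the unspiked controls, and its fitted log2 difference of 2.27 (limma adjusted p = 0.0109) is therefore not a measured size. That call ended without animal replicate 3 (limma adjusted p = 0.05), without the mean-variance trend (0.0739) and with no filter on dim probe sets (0.164).

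The housekeeping members of the early pathway showed small differences that did not pass. *rab1a.L*, needed for transport from the ER to the Golgi, read 1838 ± 101 (SD, n = 3) at the animal and 1665 ± 139 (SD, n = 3) at the vegetal pole, a log2 difference of 0.14. *rab6a.S*, of transport within and back from the Golgi, was at -0.13 and *rab18.S*, of ER and lipid droplets, at -0.094 (limma adjusted p = 0.238 and 0.318). Other scalings moved these calls. By its brightest probe set *rab1a.L* passed toward the animal pole after quantile normalization (limma adjusted p = 0.000797) and spiked-control scaling (0.00246). *rab6a.S* and *rab18.S* passed toward the vegetal pole after median centring (limma adjusted p = 0.00279 and 0.00298). *rab33b.L*, which links the Golgi to autophagy, read 82.3, 60.4 and 64.9 at the animal and 92.4, 89.6 and 87.7 at the vegetal pole. Its groups did not overlap, yet its log2 difference of -0.39 missed the threshold (limma adjusted p = 0.0511). It passed without animal replicate 1 (limma adjusted p = 0.0199). For this compartment quantile normalization gave 5 animal calls and 1 vegetal call, median centring 4 and 3, and scaling to spiked controls 5 and 0. Averaging the probe sets of each gene gave 3 and 2, with a list median of -0.074 in place of 0.47.

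Under the deposited scaling exocytic Rabs were most of the Rab genes higher at the vegetal pole, 5 of 6. After median centring they were 6 of 14. Of 10 exocytic Rabs tested, 5 were higher at the vegetal pole (against 23.7% of all genes), 2 at the animal pole (against 27.1%) and 3 did not pass, with a median log2 difference of -0.33. *rab8a.S*, which directs post-Golgi vesicles to the plasma membrane and to cilia, read 744.9, 716.5 and 717.9 at the animal and 1419.6, 1206.4 and 1285.3 at the vegetal pole. The groups lay well apart, at 1.79-fold higher at the vegetal pole (1.59 to 2.02, limma adjusted p = 5.26e-07). *rab3a.L*, a Rab of regulated exocytosis on secretory vesicles, read 651.3, 743.0 and 752.3 at the animal and 1037.9, 1073.2 and 1103.8 at the vegetal pole. It was 1.5003-fold higher at the vegetal pole (1.33 to 1.69, limma adjusted p = 2.58e-05), and both calls held under every alternative run. *rab13.L*, known for traffic to tight junctions, was 1.38-fold higher at the vegetal pole (1.16 to 1.64, limma adjusted p = 0.00351), with 199 ± 7 (SD, n = 3) at the animal and 276 ± 39 (SD, n = 3) at the vegetal pole. Its call ended under spiked-control scaling (limma adjusted p = 0.391).

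*rab27a*, which docks secretory granules and lysosome-related organelles at the plasma membrane, was higher at the vegetal pole by both of its copies. *rab27a.S* read 22.1, 10.2 and 12.6 at the animal and 53.2, 43.3 and 24.7 at the vegetal pole, 2.72-fold higher at the vegetal pole (1.65 to 4.48, limma adjusted p = 0.00236). The lowest vegetal array lay just above the highest animal one. *rab27a.L* read 15.7, 18.8 and 19.4 at the animal and 29.4, 44.9 and 27.8 at the vegetal pole, 1.86-fold higher at the vegetal pole (1.26 to 2.73, limma adjusted p = 0.00956). Without vegetal replicate 2 the call of *rab27a.L* ended (limma adjusted p = 0.0542), as it did under spiked-control scaling (0.0699), and that of *rab27a.S* ended with no filter on dim probe sets (0.0618). The copies of *rab27b* gave log2 differences of -0.20 and -0.070 that did not pass.

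A pair of exocytic Rabs was higher at the animal pole. *rab8b.L* read 527.6, 473.1 and 482.8 at the animal and 346.2, 359.0 and 349.2 at the vegetal pole, 1.41-fold higher at the animal pole (1.24 to 1.598, limma adjusted p = 0.000242). *rab10.L*, of basolateral and insulin-regulated exocytosis, was 1.17-fold higher at the animal pole (1.03 to 1.34, limma adjusted p = 0.0454). That call ended without animal replicate 2 (limma adjusted p = 0.246), vegetal replicate 2 (0.113) or vegetal replicate 3 (0.103), and its difference was -0.040 (log2) after median centring. Over the 10 exocytic genes quantile normalization gave 5 vegetal and 2 animal calls, median centring 6 and 1, and scaling to spiked controls 3 and 2. The list's median kept its sign under these scalings, at -0.49, -0.60 and -0.094.

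Among early endosome Rabs the largest differences by the brightest probe sets belonged to *rab20*. Of 8 tested genes 3 were higher at the animal pole (37.5%, against 27.1% of all genes) and 1 at the vegetal pole (12.5%, against 23.7%), with a median of 0.23. With median centring the calls were 2 and 2 and with spiked controls 6 and 0. *rab20*, a Rab of early endosomes and phagosomes, was higher at the animal pole by both copies. *rab20.S* read 65.8, 58.6 and 66.9 at the animal and 36.8, 35.5 and 22.4 at the vegetal pole, 2.07-fold higher at the animal pole (1.496 to 2.85, limma adjusted p = 0.000957). *rab20.L* read 46.2, 50.9 and 58.6 at the animal and 19.2, 28.3 and 36.9 at the vegetal pole, 1.90-fold higher (1.32 to 2.73, limma adjusted p = 0.00528). The groups of each copy were apart on every array, and the call of *rab20.L* ended only with no filter on dim probe sets among the alternatives run (limma adjusted p = 0.0572).

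The *rab5* proteins control fusion of early endosomes and the uptake of receptors, and RNAs of 5 tested members were measured. *rab5c.L* read 913.1, 934.6 and 985.8 at the animal and 809.1, 782.2 and 738.7 at the vegetal pole, 1.22-fold higher at the animal pole (1.09 to 1.36, limma adjusted p = 0.00639), which fell to a log2 difference of 0.014 after median centring (limma adjusted p = 0.916). *rab5d.S* read 1579.6, 1581.1 and 1643.7 at the animal and 1815.1, 1752.4 and 1882.9 at the vegetal pole, 1.13-fold higher at the vegetal pole (1.02 to 1.26, limma adjusted p = 0.0377). This small call ended without animal replicate 1 (limma adjusted p = 0.0835), animal replicate 2 (0.129), vegetal replicate 1 (0.0739) or vegetal replicate 3 (0.107), and turned to 0.059 (log2) under spiked-control scaling. *rab5a.L* was at 0.18 and *rab5b.L* at 0.68 (log2), each with animal arrays above vegetal ones and neither past the threshold (limma adjusted p = 0.0754 and 0.083). *rab5a.L* passed without vegetal replicate 3 (limma adjusted p = 0.0313). *rab5d.L* by its brightest probe set was at -0.013 and *rab21.L*, which carries integrins through early endosomes, at 0.10 (log2). After quantile normalization and spiked-control scaling *rab21.L* passed toward the animal pole (limma adjusted p = 0.0325 and 0.0222). After median centring *rab5d.L* passed toward the vegetal pole by its brightest probe set (limma adjusted p = 0.0174). Another probe set of *rab5d.L*, given below, passed toward the animal pole.

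No Rab of the recycling endosome passed the test by its brightest probe set under the deposited scaling (0 of 6, against 50.9% of all genes). This count leaves out *rab35l.L*, which passed, and *rab35l.S*, which did not. Both were placed among the remaining genes after the data were seen, although mammalian *RAB35* is known for endosomal recycling. The count of 0 therefore depends on that placement. The 6 tested genes lay between -0.63 and 0.37 (log2), with a median of 0.068. *rab11a.S*, which drives slow recycling and membrane delivery to the cleavage furrow, read 519.9, 553.0 and 562.6 at the animal and 564.8, 516.5 and 505.9 at the vegetal pole. Its 2 groups were interleaved, and the ratio of animal to vegetal signal was 1.03 with a 95% confidence interval of 0.91 to 1.17. *rab4b.S*, of fast recycling, read 65.6, 64.9 and 60.9 at the animal and 43.3, 53.2 and 52.5 at the vegetal pole, without overlap, at 0.37 (log2, limma adjusted p = 0.0847). Its copy *rab4b.L* was at -0.12. *rab25.S*, an epithelial relative of *rab11a*, was at -0.63 (limma adjusted p = 0.148) and passed toward the vegetal pole without vegetal replicate 1 (0.0428), after quantile normalization (0.0406) and after median centring (0.0398). With spiked controls *rab14.S* and *rab4b.S* passed toward the animal pole (limma adjusted p = 0.0401 and 0.0361). *rab15.S*, near background, was at 0.29, and *rab14.S*, of traffic between Golgi and endosomes, was at 0.092 by its brightest probe set and far higher at the animal pole by another, as given below. By the mean of its probe sets *rab14.S* passed toward the animal pole at 1.04 (log2, limma adjusted p = 3.59e-07).

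Among Rabs of late endosomes, lysosomes and autophagy 2 of 8 tested genes passed (25.0%, against 50.9% of all genes), both toward the animal pole. Median centring gave 0 animal calls and 1 vegetal call here, and spiked controls 4 and 0. *rab7a.L*, which governs late endosomes and their fusion with lysosomes, read 669.4, 654.2 and 668.9 at the animal and 522.6, 546.1 and 580.5 at the vegetal pole, 1.21-fold higher at the animal pole (1.07 to 1.36, limma adjusted p = 0.00991). After median centring its difference was 0.0052 (log2, limma adjusted p = 0.967). *rab24.S*, a Rab of autophagic membranes, read 18.5, 16.1 and 20.3 at the animal and 7.3, 14.0 and 8.7 at the vegetal pole, 1.89-fold higher at the animal pole (1.16 to 3.09, limma adjusted p = 0.0293). That call ended without animal replicate 1 (limma adjusted p = 0.0763), animal replicate 3 (0.0978), vegetal replicate 1 (0.0909) or vegetal replicate 3 (0.067), and after quantile normalization (0.103) or median centring (0.107). *rab32.S*, of mitochondria and lysosome-related organelles, was at 0.99 (log2) with 2 of 3 vegetal arrays above the unspiked controls (limma adjusted p = 0.0653), and *rab29.S*, of the trans-Golgi and lysosomes, at 0.37 (0.11). Both passed without vegetal replicate 2 (limma adjusted p = 0.0304 and 0.0221) and under spiked-control scaling (0.0178 and 0.026). *rab9a.L* and *rab9a.S*, of return from late endosomes to the Golgi, were at -0.15 and 0.046.

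The remaining genes were *rab23.S*, a Rab of cilia and Hedgehog signalling, and 5 genes with less settled places. *rab23.S* was at 0.29 (log2, limma adjusted p = 0.279). *rab19.L* read 106.9, 126.7 and 114.3 at the animal and 48.7, 65.8 and 56.7 at the vegetal pole, 2.04-fold higher at the animal pole (1.61 to 2.58, limma adjusted p = 7.12e-05). *rab35l.L*, annotated as similar to *rab35*, read 412.5, 385.8 and 390.1 at the animal and 189.2, 271.7 and 177.8 at the vegetal pole, 1.89-fold higher at the animal pole (1.55 to 2.32, limma adjusted p = 4.73e-05). For both genes all animal arrays were above all vegetal ones, and the calls held under every alternative run. *rab40c.S*, of a Rab subfamily that carries a SOCS box and joins ubiquitin ligases, was 1.52-fold higher at the animal pole (1.09 to 2.13, limma adjusted p = 0.0364). Its call ended without any 1 of animal replicates 1, 2 and 3 (limma adjusted p = 0.141, 0.0523 and 0.0719) or vegetal replicates 1 and 3 (0.0857 and 0.0862). *rab40b.L* of the same subfamily was at -0.24 (limma adjusted p = 0.0696) and passed without vegetal replicate 1 (0.0293).

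**Figure D2:**
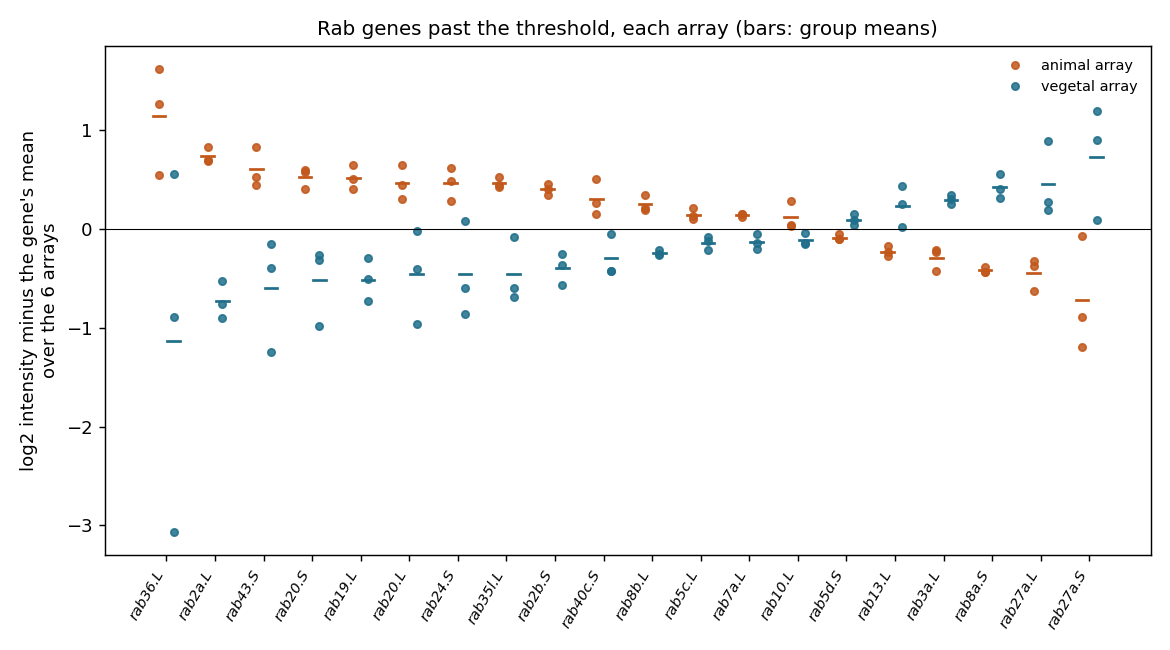
Log2 intensity on each array minus the gene's mean over the 6 arrays, for the 20 Rab genes past the threshold, ordered by the difference between the groups (points: 3 animal and 3 vegetal arrays; bars: group means). Only *rab36.L* has overlapping groups among these 20 genes, and its lowest vegetal value lies at the floor of 1.

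Both copies of 10 Rab genes were tested, which allowed each copy's pole difference to be set against the other's. The copies had unequal differences for 1 of the 10 pairs (against 43.6% of all 1357 homeolog pairs tested; limma on the per-array difference of the copies, Benjamini-Hochberg over all pairs). That pair was *rab8b*, for which *rab8b.L* was higher at the animal pole, as above, while *rab8b.S* read 1045.6, 1153.1 and 1059.7 at the animal and 1223.6, 1173.8 and 1210.2 at the vegetal pole, at -0.15 (log2, limma adjusted p = 0.107). The copies' differences were 0.64 apart on the log2 scale (0.36 to 0.92, limma adjusted p = 0.00533), and this call held under every alternative run. In 2 pairs, *rab20* and *rab27a*, both copies passed in the same direction, in 5 pairs 1 copy passed and in 3 pairs (*rab27b*, *rab4b* and *rab9a*) neither did. In no pair did the copies pass in opposite directions under the deposited scaling. After median centring those of *rab8b* did, since *rab8b.L* kept its animal call and *rab8b.S* passed at -0.42 (log2, limma adjusted p = 0.00124). The shares of all homeolog pairs with these patterns of calls are not given here, so the Rab counts cannot be set against them.

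A copy past the threshold beside one that missed it was in most pairs not shown to differ. For *rab35l*, *rab35l.L* was at 0.92 and *rab35l.S* at 0.091, 0.83 apart (0.10 to 1.56, limma adjusted p = 0.0664). That difference passed without vegetal replicate 2 (limma adjusted p = 0.00372), after quantile normalization (0.0433), with 16 added before log2 (0.017) and with the lowest 60% left out (0.0301). For *rab7a*, *rab7a.S* read 2226.9 ± 127.0 (SD, n = 3) at the animal and 2309 ± 138 (SD, n = 3) at the vegetal pole, a log2 difference of -0.052 that was 0.15 after quantile normalization (limma adjusted p = 0.01) and -0.32 after median centring (0.0158), and the copies were 0.33 apart (0.061 to 0.59, limma adjusted p = 0.0519). It passed with 16 added before log2 (limma adjusted p = 0.0419) and with the lowest 60% left out (0.0351). For *rab24* the copies were -0.71 apart (limma adjusted p = 0.112, and 0.034 without vegetal replicate 2) and for *rab5d* 0.17 apart (0.201, and 0.66 apart with 0.00864 by the mean of probe sets). For *rab4b* they were -0.48 apart (limma adjusted p = 0.0754, and 0.0121 without vegetal replicate 3). The 2 copies of *rab20* were -0.12 apart, with an interval of -1.05 to 0.81, and those of *rab27a* 0.55 apart, with an interval of -0.44 to 1.54, intervals wide enough to hold sizeable differences in either direction. Probe sets made for one copy may also bind the other.

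**Figure D3:**
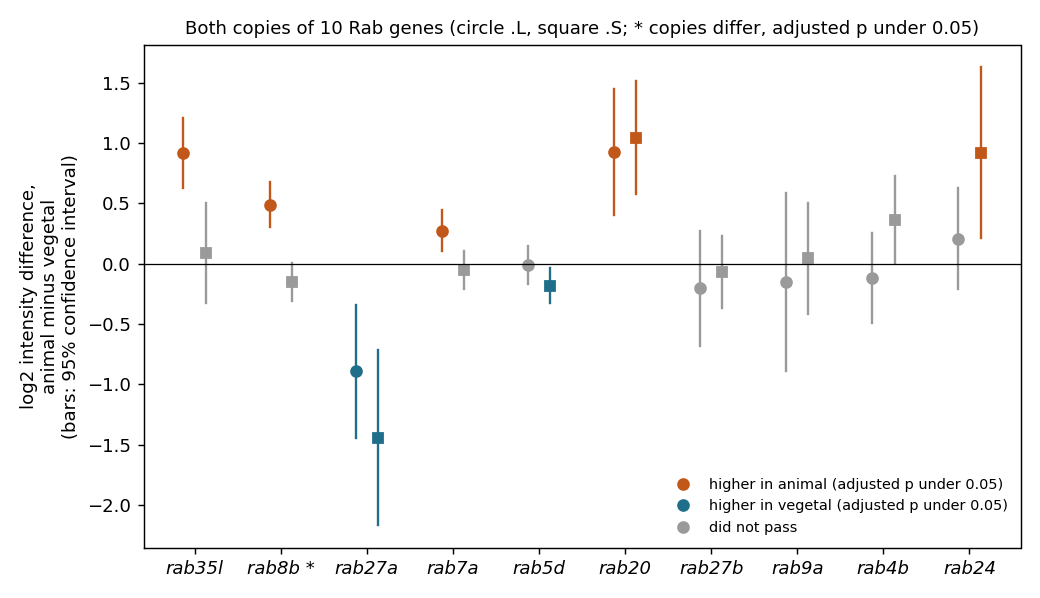
Log2 intensity difference, animal minus vegetal, of the .L copy (circle) and the .S copy (square) of the 10 Rab genes with both copies tested, with 95% confidence intervals (3 arrays per group), ordered by the .L difference minus the .S difference. The copies of *rab20* lie together on the animal side and those of *rab27a* on the vegetal side, and *rab8b* is marked as the pair whose copies differed.

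Close paralogs, which share a number and differ in the final letter, were compared in the same way within .L or .S copies. Differences were unequal for 4 of 9 such Rab pairs (44.4%, against 52.5% of all 255 pairs of lettered paralogs tested; limma, Benjamini-Hochberg over all pairs, a comparison chosen after seeing the data). *rab8a.S* and *rab8b.S*, which share much of their function in mammalian cells, were -0.69 apart (log2, -0.97 to -0.41, limma adjusted p = 0.00177), with *rab8a.S* the more vegetal. *rab27a.L* and *rab27b.L* were -0.69 apart (-1.03 to -0.35, limma adjusted p = 0.00543) and *rab27a.S* and *rab27b.S* -1.37 apart (-2.21 to -0.53, limma adjusted p = 0.014), so that in both copies *rab27a* was the more vegetal. The call for the .S copies ended without animal replicate 3 (limma adjusted p = 0.0629). In the *rab5* family 1 of 6 pairs passed, *rab5b.L* against *rab5d.L* at 0.70 (limma adjusted p = 0.0451), and it ended without any single array (limma adjusted p = 0.0552, 0.155 and 0.0636 without animal replicates 1, 2 and 3, and 0.146, 0.0929 and 0.0524 without vegetal replicates 1, 2 and 3).

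Several Rab genes were read by more than 1 probe set, and these did not always give the same answer. Of 10 Rab genes with several tested probe sets 1 had calls in opposite directions (all genes: 7.33% of 1692), and 4 had probe sets with unlike calls (all genes: 53.0%). Tested against the brightest probe set of its gene, another probe set had an unequal pole difference in 4 of 14 cases (28.6%, against 29.4% of all 2472 such cases; limma, Benjamini-Hochberg over all cases, a comparison chosen after seeing the data). For *rab43.S* the brightest probe set was higher at the animal pole, as above, while the other read 7.4, 9.1 and 12.3 at the animal and 52.2, 46.7 and 59.0 at the vegetal pole. By the latter *rab43.S* was 5.58-fold higher at the vegetal pole (3.76 to 8.28, limma adjusted p = 1.93e-06), and the probe sets were 3.68 apart (log2, 2.99 to 4.36, limma adjusted p = 0.000258). The mean of both was at -0.64 (limma adjusted p = 0.0483), so the direction of *rab43.S* depends on the probe set.

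For *rab14.S* the brightest probe set read 985.4, 1120.5 and 1001.9 at the animal and 1001.3, 950.1 and 959.7 at the vegetal pole, with overlap. The other read 203.4, 220.1 and 204.1 at the animal and 52.4, 57.6 and 48.8 at the vegetal pole, with a wide gap between the groups, and was 3.96-fold higher at the animal pole (3.25 to 4.82, limma adjusted p = 1.02e-08). The probe sets were -1.89 apart (log2, -2.23 to -1.55, limma adjusted p = 0.000225). For *rab5d.L* the brightest was level, at 943 ± 37 (SD, n = 3) at the animal and 951 ± 29 (SD, n = 3) at the vegetal pole. Its other probe set read 121.9, 78.1 and 117.7 at the animal and 45.9, 53.8 and 60.2 at the vegetal pole, 1.96-fold higher at the animal pole (1.48 to 2.60, limma adjusted p = 0.000588). The difference between them, -0.98 (limma adjusted p = 0.0196), ended without animal replicate 1 (0.0648) or 3 (0.0644). For *rab8a.S* all 3 probe sets were higher at the vegetal pole, the dimmer ones by 1.34-fold each. The difference between the brightest and the next, -0.42 (limma adjusted p = 0.0478), ended without any single array (limma adjusted p = 0.0708 to 0.154). The 4 probe sets of *rab1a.L*, the 3 of *rab24.L*, and the pairs of *rab18.S*, *rab40b.L*, *rab4b.L* and *rab7a.L* were not shown to differ from the brightest of each gene, although those of *rab1a.L* and *rab24.L* passed without single arrays (limma adjusted p = 0.0436 without animal replicate 3 and 0.0377 without vegetal replicate 1 for *rab1a.L*, and 0.0383 without vegetal replicate 1 for *rab24.L*). Where the probe sets lie on the transcripts is not given in the sources used here, and the part of the *gapdh* end ratios, higher on vegetal arrays, in these disagreements was not tested.

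**Figure D4:**
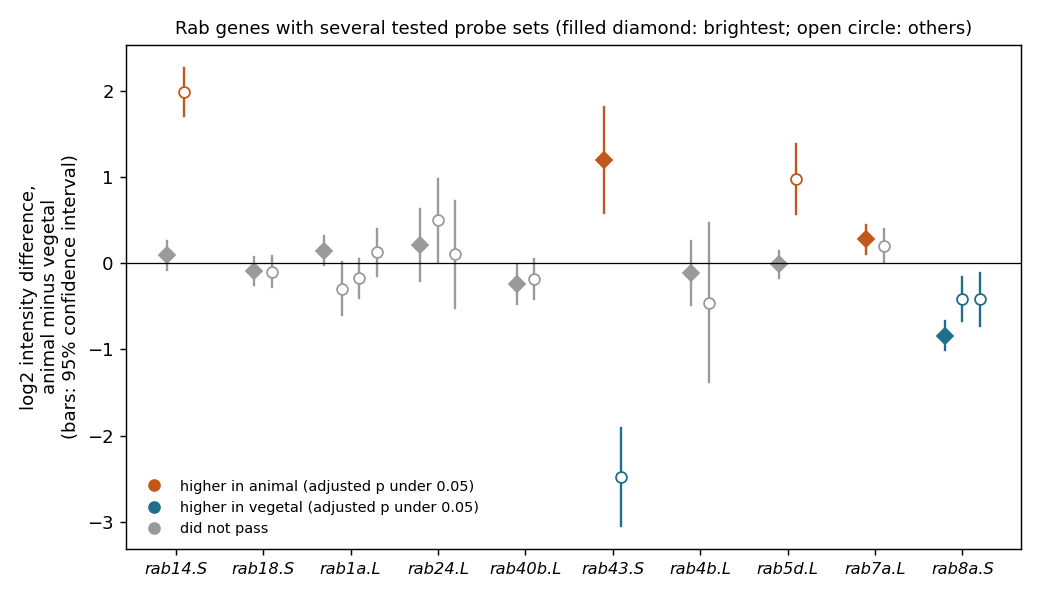
Log2 intensity difference, animal minus vegetal, of every tested probe set of the 10 Rab genes that have several, with 95% confidence intervals (filled diamond: the brightest, which stands for the gene; open circles: the others; 3 arrays per group). The probe sets of *rab43.S* pass on opposite sides of 0, and those of *rab14.S* and *rab5d.L* differ in size. Those of *rab1a.L* lie on both sides of 0 without passing.

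A further 11 Rab genes were too dim to test. *rab3b.L*, *rab3d.L*, *rab3d.S*, *rab6b.S*, *rab7b.L*, *rab7b.S*, *rab25.L*, *rab37.L* and *rab38.S* lay at or below the unspiked controls on each array. In mammals *rab3b*, *rab3d* and *rab37* serve regulated secretion, *rab6b* is neuronal, *rab25* epithelial and *rab38* known from pigment cells. *rab30.S*, a Golgi Rab, was above the controls on 3 animal arrays and 1 vegetal array, and *rab33a.L* on 1 of each. No direction is given for these genes.

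Genes for the proteins that load, switch and read Rabs were called in both directions, with counts that moved with the scaling. From a list of 160 names 78 were on the array as 89 genes, and 84 genes were tested. Of these 18 were higher at the animal pole (21.4%, against 27.1% of all genes) and 20 at the vegetal pole (23.8%, against 23.7%), with a median log2 difference of -0.020. Median centring gave 6 and 32 (all genes: 1193 and 3284), and scaling to spiked controls 25 and 10 (all genes: 2785 and 826).

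Genes listed under Rab prenylation and membrane extraction that passed were higher at the animal pole by their brightest probe sets. The class is as listed, and neither activity is known for *rabac1*, both copies of which are among the calls. Of 7 tested genes 4 were higher at the animal pole (57.1%, against 27.1% of all genes) and none at the vegetal pole (against 23.7%), with a median of 0.44. With quantile normalization, median centring and spiked controls the animal calls were 5, 2 and 5, and vegetal calls stayed at 0. *rabggta.L*, the alpha subunit of the Rab geranylgeranyl transferase, read 83.7 ± 16.4 (SD, n = 3) at the animal and 40.2 ± 8.3 (SD, n = 3) at the vegetal pole, 2.08-fold higher (1.54 to 2.82, limma adjusted p = 0.000519). *chm.S*, a Rab escort protein, read 23.2 ± 6.0 (SD, n = 3) at the animal and 7.37 ± 3.78 (SD, n = 3) at the vegetal pole, a fitted log2 difference of 1.75 (limma adjusted p = 0.00175), with 1 of 3 vegetal arrays above the unspiked controls. Neither *rabggtb.S* of the same transferase nor the other copy *chm.L* passed, at 0.050 and 0.27 (log2, limma adjusted p = 0.841 and 0.466). *rabac1.S* and *rabac1.L*, a prenylated Rab acceptor, were 1.48-fold and 1.35-fold higher at the animal pole. The call of *rabac1.S* ended without animal replicate 2 (limma adjusted p = 0.0704) or vegetal replicate 3 (0.0535) and after median centring (0.146). *gdi2.L*, the GDP dissociation inhibitor, was at 0.091 (log2) by its brightest probe set, which did not pass, and at -0.22 by another, which passed toward the vegetal pole (limma adjusted p = 0.02).

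Exchange factors held the largest difference of the list. Of 27 tested genes 4 were higher at the animal pole (14.8%, against 27.1% of all genes) and 7 at the vegetal pole (25.9%, against 23.7%), with a median of -0.165. Median centring gave 1 and 12, and spiked controls 5 and 3 with a median of 0.0753. *trappc5.L*, a core subunit of the TRAPP complexes that activate Rab1 and Rab11, read 52.5 ± 7.2 (SD, n = 3) at the animal and 270.9 ± 5.3 (SD, n = 3) at the vegetal pole, 5.19-fold higher at the vegetal pole (4.25 to 6.33, limma adjusted p = 1.53e-09), and its other probe set passed in the same direction. *trappc13.L* was 2.32-fold higher at the vegetal pole (1.97 to 2.74), whereas *trappc2.S*, another core subunit, was 2.20-fold higher at the animal pole (1.79 to 2.70) and *trappc9.L* 1.57-fold (1.21 to 2.04). Over the 15 TRAPP genes 2 were higher at the animal and 3 at the vegetal pole, and 10 did not pass. *c9orf72.L*, part of a complex with exchange and GTPase-activating functions in autophagy, was 1.98-fold higher at the vegetal pole (1.59 to 2.47), and *rabif.S*, a chaperone of nucleotide-free Rabs, 1.46-fold higher at the animal pole (1.21 to 1.76). The calls of *trappc9.L* and *rabif.S* ended after median centring (limma adjusted p = 0.0905 and 0.0754).

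Of 18 tested GTPase-activating proteins 3 were higher at the animal pole (16.7%, against 27.1% of all genes) and 4 at the vegetal pole (22.2%, against 23.7%). The class is as listed, and this activity is not known for every member, *tbc1d31.L* and *tbc1d23.S* among them. Quantile normalization and median centring left 0 animal calls, beside 5 and 7 vegetal ones, and spiked controls gave 5 animal and 2 vegetal calls. *tbc1d31.L* was 2.002-fold higher at the vegetal pole (1.73 to 2.32, limma adjusted p = 8.16e-07). *tbc1d10a.L*, which inactivates Rab27 and Rab35 in mammalian cells, read 268.1 ± 12.9 (SD, n = 3) at the animal and 489.7 ± 20.2 (SD, n = 3) at the vegetal pole, 1.83-fold higher at the vegetal pole (1.599 to 2.09, limma adjusted p = 1.25e-06). The other 4 genes named lost their calls when single arrays were left out. *tbc1d23.S* was at -0.62 (log2; limma adjusted p = 0.106 and 0.119 without animal replicates 2 and 3, 0.0699 and 0.13 without vegetal replicates 1 and 3). *tbc1d22b.S* was at 0.69 (limma adjusted p = 0.0969 and 0.0731 without animal replicates 2 and 3, 0.0943 without vegetal replicate 3). *tbc1d30.L* was at 0.48 (limma adjusted p = 0.0668 without animal replicate 1) and *tbc1d19.L* at 0.31 (0.207 and 0.0774 without animal replicates 1 and 2, and 0.0693, 0.0976 and 0.0525 without vegetal replicates 1, 2 and 3).

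Of 32 tested effectors 7 were higher at the animal pole (21.9%, against 27.1% of all genes) and 9 at the vegetal pole (28.1%, against 23.7%). The balance turned with the scaling, at 3 and 13 with median centring and 10 and 5 with spiked controls. *rab11fip1.S* and *rab11fip5.L*, which read Rab11 on recycling endosomes, were 2.73-fold (1.59 to 4.68, limma adjusted p = 0.00391) and 1.95-fold (1.69 to 2.26, limma adjusted p = 8.78e-07) higher at the vegetal pole. The call of *rab11fip1.S* ended with no filter on dim probe sets (limma adjusted p = 0.0747). *rab11fip2.L* of the same family leaned to the animal pole, at 0.55, and did not pass (log2, limma adjusted p = 0.169). *rilp.S*, which couples Rab7 to dynein, was 2.09-fold higher at the vegetal pole (1.53 to 2.87, limma adjusted p = 0.000695). On the animal side *appl1.L*, an adaptor on Rab5 endosomes, read 26.3 ± 3.8 (SD, n = 3) at the animal and 11.2 ± 2.6 (SD, n = 3) at the vegetal pole, 2.39-fold higher (1.55 to 3.67, limma adjusted p = 0.00211). The other copy, *appl1.S*, was at -0.21 and *appl2.L* at -0.13, and neither passed (log2, limma adjusted p = 0.476 and 0.533). *acap2.S*, a Rab35 effector, was 1.97-fold higher at the animal pole (1.27 to 3.04), a call that ended without animal replicate 1 (limma adjusted p = 0.0588), and *rabepk.L*, a Rab9 effector, 1.56-fold higher (1.26 to 1.92). Effectors of the exocytic Rabs, picked after their values were seen, included optineurin, which binds Rab8, with *optn.S* at 308.3 ± 9.5 (SD, n = 3) at the animal and 533 ± 33 (SD, n = 3) at the vegetal pole, 1.73-fold higher at the vegetal pole (1.52 to 1.97), and *optn.L* 1.59-fold higher (1.21 to 2.09). *sytl2.S*, a synaptotagmin-like protein that binds Rab27, was 1.62-fold higher at the vegetal pole (1.37 to 1.92), and its 2 other probe sets passed in the same direction. Among other effectors of exocytic Rabs, *rph3a.S* at -0.52, *sytl4.L* at -0.41 (and 0.44 by another probe set) and *micall2.L* at -0.11 did not pass (log2, limma adjusted p = 0.115, 0.111 and 0.781). *inpp5b.L*, whose protein also binds Rab8, passed toward the animal pole at 0.58 (log2, limma adjusted p = 0.000601). *rilpl1.L* at 0.061 and *rilpl2.L* at 0.22 did not pass (limma adjusted p = 0.825 and 0.247).

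**Figure D5:**
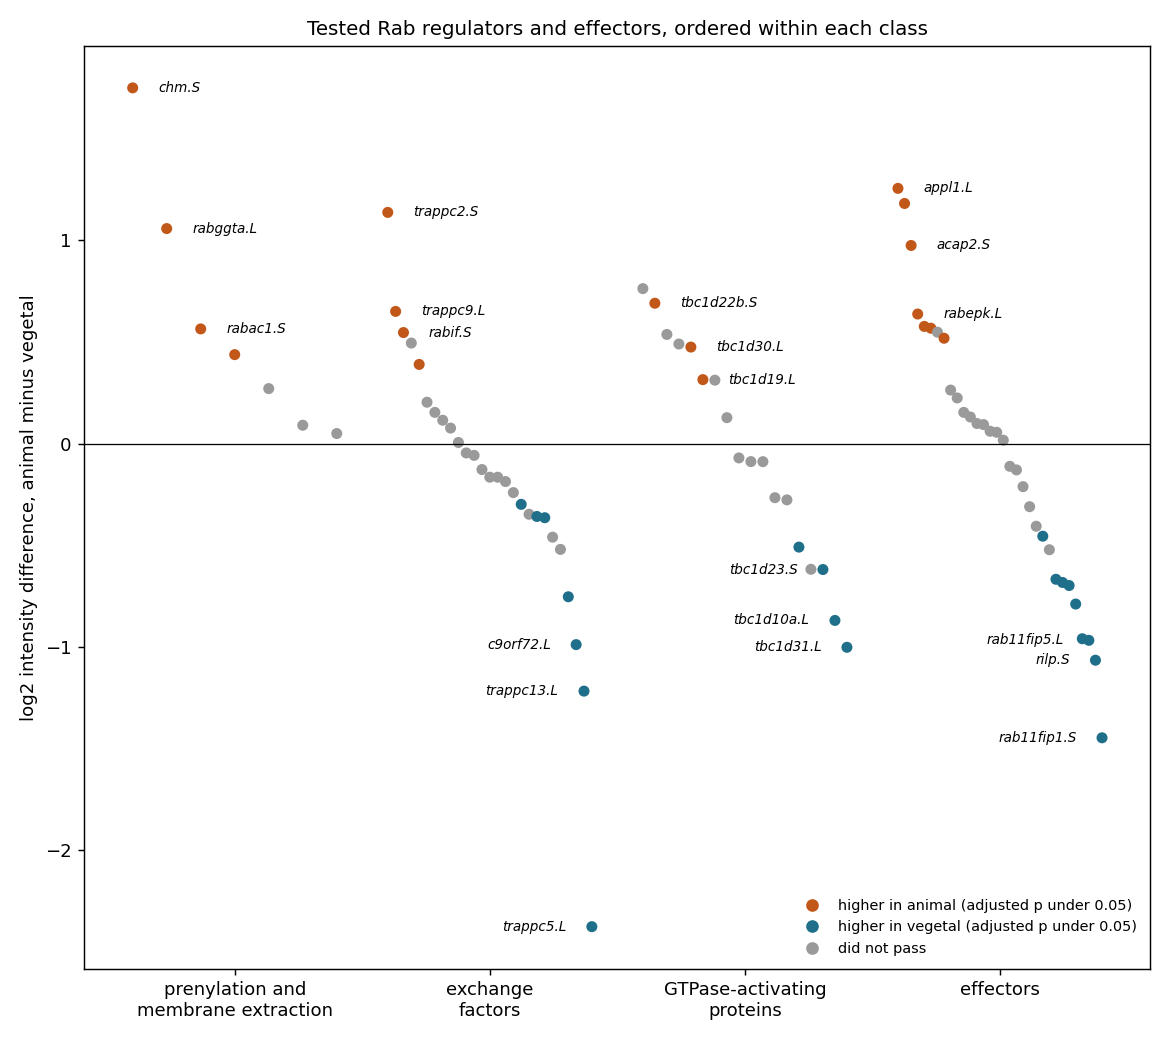
Log2 intensity difference, animal minus vegetal, of the 84 tested Rab regulators and effectors in 4 classes, each class ordered from animal to vegetal (1 point per gene; 3 arrays per group; named genes are the 3 largest non-overlapping calls per class and direction). The 7 genes listed under prenylation and membrane extraction lie above 0 under the deposited scaling, and *trappc5.L* lies lowest.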

How the data were processed

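Total RNA of 6 samples was amplified with biotin label for 1-colour arrays, per the labels' protocols. The authors deposited linear intensity values for each probe set, and the submitters' processing notes name GCOS, with release and background correction not given in the sources used here. On each array the 2% trimmed mean was 150, so the intensities were used as scaled. Of 32635 probe sets 96 were controls, 15495 had 1 gene symbol, 279 several and 16765 none here. Symbols came from the platform annotation, updated through gene IDs to assembly Xenopus_laevis_v10.1 (2 changed).

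Log2 was taken with a floor of 1. Dropping the lowest 40% by mean log2, those below an intensity of 6.94, kept 19523 probe sets. Animal and vegetal arrays were compared with limma 3.58.1 (R 4.3.3), a linear fit with trended eBayes, all 6 arrays, no block, two-sided, threshold 0.05. The fit was tested on simulated data, with settings and outcome not given here. The probe set with the highest mean log2 stood for its gene. Background was the highest of 59 unspiked control probe sets, 4.1 to 6.7 per array. Arrays give no counts, and their number limits the precision. Compartments follow textbook roles. *rab5d* and *rab35l* were placed after seeing the data. Every tested Rab gene could be named. Of regulators and effectors, the 3 largest non-overlapping calls per class and direction were named by rule. *rabac1.L*, *rabggtb.S*, *chm.L*, *gdi2.L*, *optn*, *sytl2.S*, *sytl4.L*, *rph3a.S*, *micall2.L*, *inpp5b.L*, *rilpl1.L*, *rilpl2.L*, *appl1.S*, *appl2.L* and *rab11fip2.L* lie outside it and were chosen after their values were seen. The members and lists were chosen with earlier results of these data known.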

Additional observations from a re-analysis of the deposited data

How the results depend on the processing

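Of the 20 Rab genes past the threshold 8 kept their direction and their call under every alternative run (*rab2a.L*, *rab2b.S*, *rab3a.L*, *rab8a.S*, *rab8b.L*, *rab19.L*, *rab20.S* and *rab35l.L*). Of 14 Rab genes higher in animal and 6 higher in vegetal samples, median centring left 9 and 14, and scaling to spiked controls 22 and 3. With no filter and with the lowest 60% left out 9 were higher in animal samples. More Rab genes were tested with no filter and fewer with the lowest 60% left out, so these counts are not out of the same number of genes. Leaving out single arrays gave 11 to 15 animal and 5 to 7 vegetal calls. For regulators and effectors median centring gave 6 animal and 32 vegetal calls and spiked-control scaling 10 vegetal calls. Over all genes median centring gave 1193 animal and 3284 vegetal calls, and spiked-control scaling 2785 and 826. The 1 homeolog pair with unequal differences became 2 after quantile normalization and with the mean of probe sets, 3 with 16 added before log2 and 4 with the lowest 60% left out, and 1 to 3 without single arrays. Same-numbered replicates did not deviate together (r of -0.023, 0.0063 and -0.014), and 1 of 6 arrays correlated best with their own number. With the replicate block 12 and 5 Rab genes and 2 homeolog pairs were called. Median centring and spiked-control scaling shift all genes alike, so small differences change sign with them. Among Rab genes past the threshold in the reported or the alternative setting, the sign turned for *rab10.L* (-0.040, log2, median centring), *rab5d.S* (0.059, spiked-control scaling), *rab7a.S* (0.15, quantile normalization), *rab43.S* (-0.64, mean of probe sets) and *rab5d.L* (0.48, mean of probe sets). Counting only genes above the unspiked controls on all 6 arrays, chosen after seeing the data, gave 13 and 6. The causes were not tested. Signal over background limits *rab36.L*, *rab32.S*, *rab15.S* and the 11 Rab genes too dim to test.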
